A study of Mus musculus with 6 samples.

Results

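The solute carrier organic anion transporters of the Slco family were measured in mTECs, a line of mouse renal tubular epithelial cells, as 7 members: Slco4a1, Slco2a1, Slco3a1, Slco5a1, Slco2b1, Slco1a6 and Slco4c1. The members were chosen by measured values of these same libraries, because Slco4a1 stood near 2-fold higher in 1 of the groups (ratio of group means 2.03), and their values are therefore given as a description, with no test. The deposited table held 22442 gene identifiers and 14 Slco genes, the 7 members and 7 others (Slco1b2, Slco1a1, Slco1a5, Slco1a4, Slco1c1, Slco6c1 and Slco6d1). Bulk RNA-seq was run on 6 libraries, 3 labelled LPS and 3 labelled LPSKD. Cells of the group labelled LPS had been transfected with a negative control, and those labelled LPSKD with an siRNA against Stat3, a transcription factor activated by cytokine signalling. All of them then received lipopolysaccharide (LPS), the endotoxin of Gram-negative bacteria, at 20 μg/ml for 24 h, so the data hold no cells without LPS. The labels speak of magnetically sorted cells, whereas the study's methods name an immortalised line and list an shRNA for Stat3. Nothing in the labels states that the 3 libraries of a group came from separate cultures, so the SDs, SEs and p-values measure the spread between these libraries, which may be technical.

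Transporters of this family sit in the plasma membrane and carry large amphipathic anions into the cell, among them bile salts, thyroid hormones, prostaglandins, conjugated steroids and many drugs. Most members accept several of these, while Slco2a1 is best known for clearing prostaglandins from the outside of the cell. In the kidney, members of the family move hormones, toxins and drugs between blood, tubule cell and urine.

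Stat3 itself was not lower in the LPSKD-labelled libraries. Its level was 34.6, 31.4 and 35.2 FPKM (fragments scaled to gene length and to the library's total) in the LPS-labelled libraries and 30.8, 35.2 and 34.3 FPKM in the LPSKD-labelled ones, a log2 difference of −0.01 with an SE of 0.07 (limma, adjusted p = 0.944). The study reports the knockdown of Stat3 in mTECs by real-time PCR and western blot. The values here are RNA of these libraries only and do not show it, so the groups are called by their labels throughout. Depth was even, with 24084827 to 25422171 fragments a library. Of 11 tubule epithelium markers, 6 exceeded a mean of 1 FPKM (Krt8, Krt18, Cdh1, Epcam, Cdh16 and Pax8). Their list summed to 3150 to 3223 FPKM in the LPS-labelled libraries and 3084 to 3110 FPKM in the LPSKD-labelled ones. Slc34a1, Umod and Aqp2, which define proximal tubule, thick limb and collecting duct, were at 0 in all 6 libraries, Slc12a3 of the distal convoluted tubule had a value above 0 in 1 library, 0.0129 FPKM, and Lrp2 of the proximal tubule did not exceed 0.00869 FPKM. The immune list summed to 58.1 to 64.6 FPKM against 61.4 to 74.5, with 3 of 5 genes over 1 FPKM, the endothelial list to 2.31 to 4.29 against 2.71 to 4.46, with 2 of 4, and the fibroblast list to 18.5 to 23.4 against 12.2 to 22.2, with 3 of 3. Within these lists, Csf1r of macrophages was higher without overlap in the LPSKD-labelled libraries (22.0 to 27.4 against 32.7 to 33.8 FPKM), as were the tubule genes Cdh16 (176.5 to 192.3 against 218.5 to 222.4) and Pax8 (69.6 to 77.6 against 92.6 to 103), while Cd68, also of macrophages, was lower (12.55 to 14.95 against 9.64 to 12.25), as was Krt18 (1278 to 1300 against 1158 to 1173). The part of these markers in the Slco levels was not tested. In such bulk libraries, fewer cells of a type and less RNA per cell cannot be told apart. The library labelled LPS replicate 2 stood apart. In it, 251 tested genes lay over 1 log2 unit above the median of the other 5 libraries, against 50 to 89 genes in each of the others. Below that median by the same margin it had 128 genes, within the 83 to 202 of the others.

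**Figure D1:**
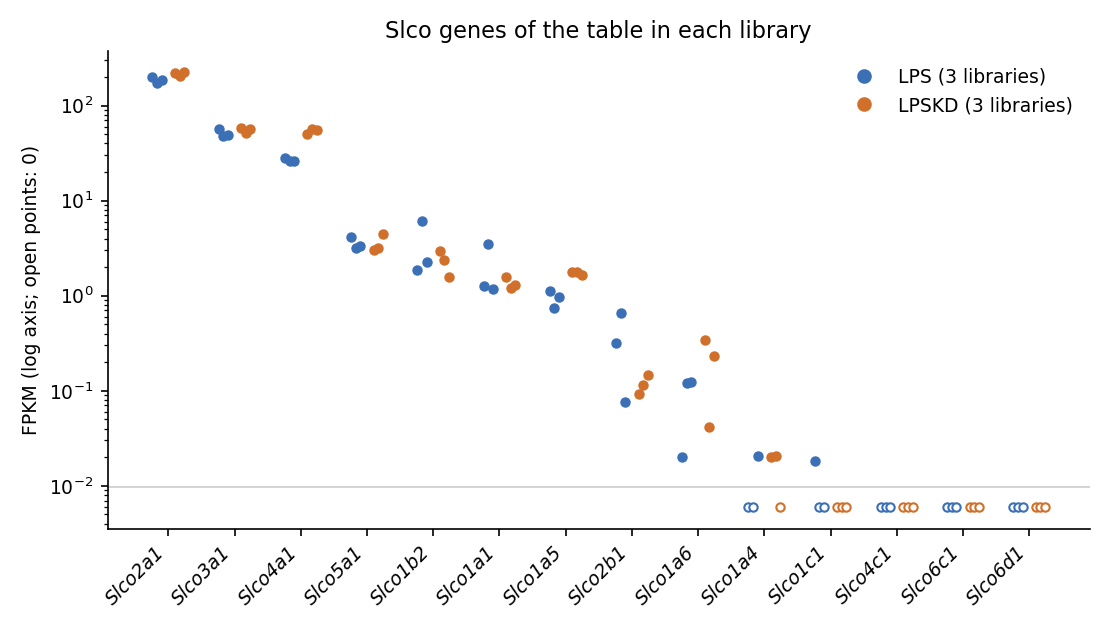
FPKM of the 14 Slco genes in each library, on a log axis, ordered by their mean; each point is 1 library and open points below the grey line are values of 0. Slco2a1 sits highest at 175 to 223 FPKM, and the orange points of Slco4a1 (LPSKD) lie above its blue points (LPS).

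Slco4a1, a transporter of thyroid hormones and other organic anions found in many epithelia, was the member on whose difference the family was chosen. The gene (ENSMUSG00000038963) lies on the plus strand at chr2:180456245-180474867 of GRCm38. RefSeq gives start sites for 5 of the 7 members in its table for GRCm38.p6, while Slco3a1 and Slco5a1 are named only. The first Slco4a1 window, chr2:180455995-180456294 on the plus strand, is shown because it belongs to the gene on which the family was chosen, and that of Slco2a1, chr9:103008237-103008536 on the plus strand, because this gene is the most abundant member. Lower case marks the 250 bases before the start and capitals the first 50 transcribed bases.
Slco4a1: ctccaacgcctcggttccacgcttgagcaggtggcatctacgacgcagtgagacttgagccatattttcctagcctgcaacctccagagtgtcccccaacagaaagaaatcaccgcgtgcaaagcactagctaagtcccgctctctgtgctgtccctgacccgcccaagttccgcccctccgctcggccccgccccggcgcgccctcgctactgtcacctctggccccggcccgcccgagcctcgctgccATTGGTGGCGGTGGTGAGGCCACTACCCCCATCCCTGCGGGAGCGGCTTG
Slco2a1: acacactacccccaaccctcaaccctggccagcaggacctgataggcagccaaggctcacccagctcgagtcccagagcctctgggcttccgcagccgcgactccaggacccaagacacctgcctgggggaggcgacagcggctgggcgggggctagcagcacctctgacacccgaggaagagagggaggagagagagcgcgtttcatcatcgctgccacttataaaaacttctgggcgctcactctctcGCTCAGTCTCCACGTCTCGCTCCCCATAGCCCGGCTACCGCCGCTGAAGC
Both windows were rich in G and C, at 65.3% for Slco4a1 and 64.0% for Slco2a1, where the median over all 32851 windows was 52.7%. The second Slco4a1 window, at chr2:180460728-180461027, had 55.7%. The palindromic motif TTCNNNGAA, which STAT factors bind, reads alike on both strands and occurred in 8.3% of all windows. It was in neither window of Slco4a1 nor in that of Slco2a1, which says only that these letters are not in these bases. Of the 8 windows of members, 2 held it, both of Slco2b1, as TTCATGGAA at +13 from one start and as TTCCGGGAA at −133 from another. These distances count the first transcribed base as 0 and give the first base of the match. The Slco2a1 start of RefSeq lies inside the longer gene that GENCODE gives, so other starts of the gene were not covered.

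In the LPS-labelled libraries, Slco4a1 reached 27.8, 26.4 and 26.2 FPKM, from 1502, 1428 and 1390 fragments. In those labelled LPSKD it reached 50.6, 56.5 and 55.9 FPKM, from 2744, 2952 and 3083 fragments. All 3 values labelled LPSKD lay far above all 3 labelled LPS, and the groups did not overlap. The means were 26.8 ± 0.864 and 54.3 ± 3.22 FPKM (SD, n = 3 each), a ratio of 2.03 and a log2 difference of 1.01 with an SE of 0.06, on the log2(FPKM + 0.1) scale used for all log2 values here. Counting error alone gave a 95% interval of 1.95 to 2.10 for the ratio of the summed fragments, and it covers no spread between cultures. Over 16 other settings, each left-out library included, the log2 difference lay between 0.99 and 1.06. The CV over libraries was 3.22% in the group labelled LPS, where counting alone gives 2.64%, and 5.92% in the group labelled LPSKD, where it gives 1.85%. The scatter labelled LPS was thus close to the counting limit of the fragments. Among the 11723 genes tested, 86 had a larger log2 rise than Slco4a1, and 8 of these were at least as abundant, out of 3738 genes with such a mean. As background for the whole table, limma (Benjamini-Hochberg adjusted p under 0.05) called 184 genes higher (1.57%) and 195 lower (1.66%) in the LPSKD-labelled libraries.

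Slco2a1, the prostaglandin uptake transporter, was the most abundant family member in every library. Its gene (ENSMUSG00000032548) lies on the plus strand at chr9:102988712-103096002. It stood at 198, 175 and 187 FPKM in the LPS-labelled libraries and at 222, 207 and 223 FPKM in the LPSKD-labelled ones. The groups did not overlap, but the gap from the highest LPS value to the lowest LPSKD value was narrow beside the range within each group. The means were 186.9 ± 11.8 and 217.5 ± 9.22 FPKM (n = 3 each), a ratio of 1.16 and a log2 difference of 0.22 with an SE of 0.05. With 1 library left out, the log2 difference ran from 0.17 without LPS replicate 2 (SE 0.05) to 0.26 without LPS replicate 1 (SE 0.05). LPS replicate 2 held the lowest value. Set on the linear scale, the mean of Slco2a1 was 30.5 FPKM higher and that of Slco4a1 27.5 FPKM higher, a like difference per length at a much smaller ratio. With 8405 to 10964 fragments a library, counting alone gives a CV of 1.06% and 0.979% in the 2 groups, and the CVs over libraries were 6.28% and 4.24%.

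Slco3a1, a broadly expressed carrier of prostaglandins and thyroxine, lies on the minus strand at chr7:74275419-74554780 (ENSMUSG00000025790). It had 56.6, 48.1 and 49.6 FPKM in the LPS-labelled libraries and 57.8, 52.0 and 57.5 FPKM in the LPSKD-labelled ones. The first LPS library stood above the second LPSKD library, and the groups overlapped. The means were 51.4 ± 4.50 and 55.8 ± 3.25 FPKM (n = 3 each), with a log2 difference of 0.12 and an SE of 0.07. Slco5a1, an orphan member whose substrates are unclear, lies on the minus strand at chr1:12866549-12992650 (ENSMUSG00000025938). Its level was 4.15, 3.18 and 3.32 FPKM against 3.04, 3.17 and 4.51 FPKM. One library of each group stood above the other 4, and the groups overlapped. The means were 3.55 ± 0.525 and 3.57 ± 0.814 FPKM, and the log2 difference of −0.004 (SE 0.19) ran from −0.18 to 0.11 with 1 library left out. With all 6 libraries, both members were thus within the spread of their libraries. With 1 library left out, the log2 difference of Slco3a1 ran from 0.07 without LPS replicate 2 (SE 0.07) to 0.19 without LPS replicate 1 (SE 0.06). Of the 4 members over the filter of a mean of 0.5 FPKM, 2 (Slco4a1 and Slco2a1) did not overlap between groups, both higher in the LPSKD-labelled libraries, and 0 were lower without overlap. Over all genes tested, 10.6% were higher and 13.2% lower without overlap, and since the family was chosen on this contrast nothing is read from these counts.

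**Figure D2:**
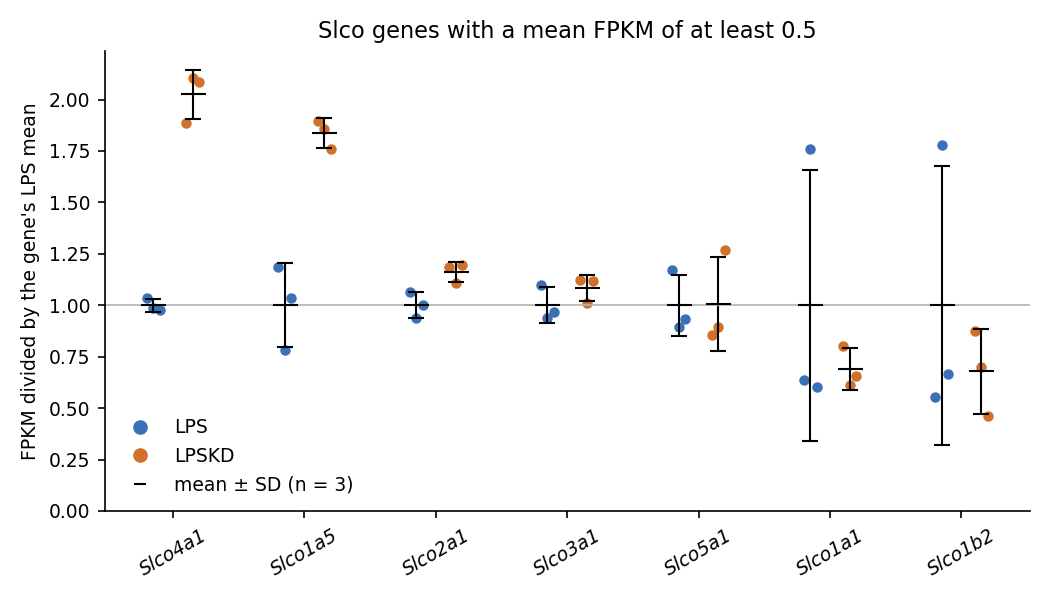
FPKM of the 7 Slco genes with a mean of at least 0.5 FPKM, divided by the gene's mean in the LPS-labelled libraries; points are libraries and black bars the mean ± SD (n = 3). Slco4a1 reaches 1.89 to 2.11 in the LPSKD-labelled libraries, Slco2a1 1.11 to 1.20, and Slco1a1 and Slco1b2 each have 1 high library labelled LPS.

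Slco2a1 led the family in every library, and Slco3a1 and Slco4a1 lay closer together in the LPSKD-labelled libraries. Slco2a1 gave 63.8% to 69.1% of the summed FPKM of the 14 genes in each library. In the LPS-labelled libraries, Slco3a1 held 18.2% to 19.4% and Slco4a1 9.54% to 10.0%, and the lowest Slco3a1 value lay above the highest of Slco4a1. In those labelled LPSKD, Slco3a1 held 16.1% to 17.0% and Slco4a1 14.9% to 17.4%, and these neighbours could no longer be ordered beyond their spread. The ratio of Slco3a1 to Slco4a1 within a library was 2.03, 1.82 and 1.89 in the first group and 1.14, 0.921 and 1.03 in the second. That of Slco2a1 to Slco4a1 was 7.14, 6.62 and 7.15 against 3.66 to 4.39. A ratio within a library does not depend on the scaling of that library. Summed over the family, the LPS-labelled libraries held 292, 264 and 271 FPKM and those labelled LPSKD 340, 324 and 346 FPKM. The mean sum was 275.5 ± 14.4 against 336.9 ± 11.5 FPKM (n = 3 each), 61.4 FPKM higher. By its mean, Slco2a1 ranked at percentile 96.4 of the 16837 genes above 0, Slco3a1 at 82.8, Slco4a1 at 77.8 and Slco5a1 at 41.8.

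The remaining 3 members were near or at 0. Slco4c1, which carries thyroid hormone, digoxin and uraemic toxins across the basolateral side of the proximal tubule, lies on the minus strand at chr1:96816270-96872171 (ENSMUSG00000040693) and had 0 fragments in all 6 libraries. A count of 0 allows up to 3 fragments, which would be 0.0545 to 0.0575 FPKM for this gene. The absence of signal stood beside that of Slc34a1, the proximal tubule marker above.

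Slco2b1, a carrier of steroid sulfates and many oral drugs, lies on the minus strand at chr7:99657804-99711340 (ENSMUSG00000030737). It had 17, 35 and 4 fragments in the LPS-labelled libraries and 5, 6 and 8 in the LPSKD-labelled ones. LPS replicate 2 was the highest and LPS replicate 3 the lowest of all 6, so the group labelled LPS spanned the other. The summed fragments were 56 and 19, a ratio of 0.338 with a counting interval of 0.190 to 0.578, but the CV over the LPS-labelled libraries was 83.1%, where counting gives 23.2%. The log2 difference was −0.81 with an SE of 0.51. It was −0.32 (SE 0.41) without LPS replicate 2 and −1.37 (SE 0.34) without LPS replicate 3. With a pseudocount of 1 FPKM it was −0.25. For Slco2b1, 17.9% of its coding stretches of 31 bases also occur in Gm15635, so fragments from there cannot be assigned with certainty.

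Slco1a6, a mouse transporter of the kidney, lies on the minus strand at chr6:142085761-142208521 (ENSMUSG00000079262), beside its close relatives. It had 1, 6 and 6 fragments in the LPS-labelled libraries and 17, 2 and 12 in the LPSKD-labelled ones, and the groups overlapped. The sums were 13 and 31, a ratio of 2.38 with a counting interval of 1.21 to 4.95. The CV over libraries was 66.8% and 73.6%, above the 48.0% and 31.1% that counting gives, and the log2 difference was 0.61 with an SE of 0.47. It was 0.31 (SE 0.51) without LPS replicate 1, 0.27 (SE 0.48) without LPSKD replicate 1 and 1.09 (SE 0.37) without LPSKD replicate 2. With a pseudocount of 1 FPKM it was 0.14, and with 0.01 FPKM 1.03. Its coding sequence shares much with its neighbours on chromosome 6: 311 of its 1980 stretches of 31 bases (15.7%) recur in another gene, 162 of them in Slco1a5. The longest run that Slco1a6 and Slco1a5 share, 111 bases from base 658 of both coding sequences (GENCODE M21), is shown because a fragment inside it fits both genes.
Slco1a6 and Slco1a5: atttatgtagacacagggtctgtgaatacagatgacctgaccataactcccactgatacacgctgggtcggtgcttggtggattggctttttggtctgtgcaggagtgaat
The values of the Slco1a genes are therefore uncertain as a split among relatives, all the more for a gene with so few fragments.

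Slco1a5, a carrier of bile salts and steroid conjugates, did not pass the test. It had 56, 37 and 48 fragments, or 1.12, 0.740 and 0.977 FPKM, in the LPS-labelled libraries. In those labelled LPSKD it had 90, 85 and 85 fragments, or 1.79, 1.76 and 1.66 FPKM. The groups did not overlap, with means of 0.945 ± 0.192 and 1.74 ± 0.0667 FPKM (n = 3 each) and a log2 difference of 0.83 with an SE of 0.23 (limma, adjusted p = 0.114). Over the other settings its adjusted p ran from 0.0549 to 0.287. For Slco1a5, 16.7% of its coding stretches recur in other genes, as described for Slco1a6.

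Slco1b2, an uptake transporter of hepatocytes, and Slco1a1 were present at low levels in all 6 libraries. Slco1b2 had 1.88, 6.06 and 2.28 FPKM in the LPS-labelled libraries and 2.98, 2.39 and 1.58 FPKM in the LPSKD-labelled ones. Slco1a1 had 1.26, 3.48 and 1.19 FPKM against 1.21 to 1.59 FPKM. In both, LPS replicate 2 was the highest of 6 and the groups overlapped, and neither differed by the test (log2 differences of −0.39 and −0.34, limma, adjusted p = 0.691 and 0.710). Relative to the mean of the other 5 libraries, LPS replicate 2 held 2.73 times the Slco1b2 level, 2.66 times that of Slco1a1 and 4.37 times that of Slco2b1. The same library was also the highest for all 20 of 20 hepatocyte products of a list written after these values were seen. Their ratios ran from 1.73 to 3.39, with a median of 2.25, and their summed FPKM was 1062 there against 431.5 to 540.1 in the others. Albumin (Alb), the main protein that hepatocytes secrete, had 339 FPKM in LPS replicate 2 and 149 to 182 FPKM in the other 5. The part of this library's hepatocyte products in the levels of Slco1b2, Slco1a1 and Slco2b1 was not tested. Slco4a1, Slco2a1, Slco3a1 and Slco5a1 had no such peak, at 0.609, 0.843, 0.880 and 0.875 of the mean of the other 5 libraries. Slco1a5 was at 0.506. For Slco4a1, Slco2a1 and Slco1a5 these 5 include the higher LPSKD-labelled libraries, which lower the ratio. LPS replicate 2 was the lowest of all 6 libraries for Slco2a1 (175.0 FPKM), Slco3a1 (48.1 FPKM) and Slco1a5 (0.740 FPKM). Among the LPS-labelled libraries, the Slco4a1 value in LPS replicate 2 (26.4 FPKM) lay between the others (26.2 and 27.8 FPKM). The log2 difference of Slco4a1 was 1.00 without LPS replicate 2. Slco1a4 had 1 fragment in each of 3 libraries, Slco1c1 had 1 fragment in 1 library, and Slco6c1 and Slco6d1 had 0 in all.

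**Figure D3:**
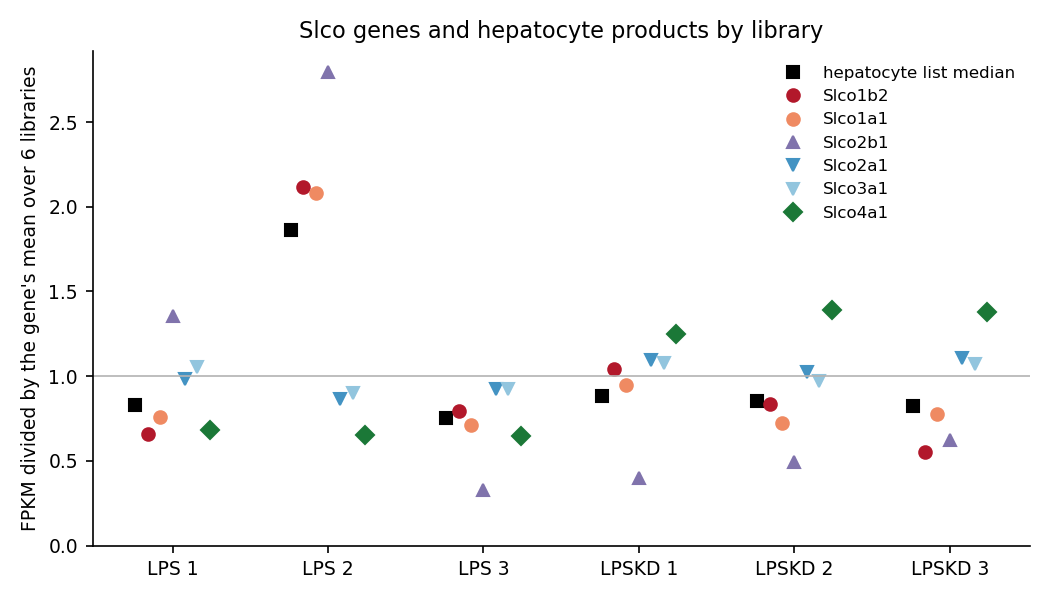
FPKM in each library divided by the gene's mean over the 6 libraries, for 6 Slco genes and the median of 20 hepatocyte products. In LPS replicate 2 the hepatocyte median reaches 1.86, Slco1b2 2.12, Slco1a1 2.08 and Slco2b1 2.80, while Slco4a1 stays at 0.652, between its values in the other LPS-labelled libraries.

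Genes that move the same kinds of compound were read from 6 lists: the organic ion carriers of the SLC22 and MATE families, ABC efflux pumps, and the handling of thyroid hormone, prostaglandins, sulfated steroids and xenobiotics. Of 81 genes, 45 passed the filter, 1 was higher and 1 lower past the threshold in the LPSKD-labelled libraries, and 43 did not pass. Both that passed were efflux pumps. The median log2 difference of the 45 was 0.02, against −0.01 over all genes tested, and 12 were higher and 7 lower without overlap. Over all genes tested, 1.57% were called higher and 1.66% lower, and 10.6% were higher and 13.2% lower without overlap.

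Abcc4, a pump that exports prostaglandins, cyclic nucleotides and conjugated steroids out of the cell, rose. It had 151, 149 and 152 FPKM in the LPS-labelled libraries and 180, 170 and 178 FPKM in the LPSKD-labelled ones. The groups did not overlap, and the means were 151.0 ± 1.70 and 175.8 ± 4.89 FPKM (n = 3 each), a log2 difference of 0.22 with an SE of 0.03 (limma, adjusted p = 0.0138). The call was lost without LPS replicate 3 (adjusted p = 0.0642), without LPSKD replicate 1 (0.0761) or without LPSKD replicate 3 (0.0774), and with 1 common prior variance (0.0862). Abcb1b, one of the mouse P-glycoproteins that pump out lipophilic drugs, fell. It had 36.9, 35.9 and 37.1 FPKM against 28.6, 29.9 and 29.3 FPKM, with no overlap and a log2 difference of −0.32 with an SE of 0.05 (limma, adjusted p = 0.00841). Without LPS replicate 3 its adjusted p was 0.0534. The 5 other efflux pumps tested did not pass.

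In the SLC22 and MATE list 5 of 17 genes passed the filter and 0 the threshold, and the most abundant, Slc22a23, an orphan member, had 29.6 ± 1.96 against 31.6 ± 1.65 FPKM (limma, adjusted p = 0.518). In the thyroid hormone list 8 of 15 were tested and 0 passed. Its most abundant gene was Slc3a2, the heavy chain of the amino acid carriers that also take up thyroid hormone, at 340.1 ± 3.50 against 329.5 ± 4.56 FPKM (adjusted p = 0.484). In the prostaglandin list Abcc4 was the only 1 of 9 tested genes to pass, and the most abundant, Ptges3, a prostaglandin E synthase and Hsp90 cochaperone, had 394.0 ± 17.7 against 398.4 ± 9.03 FPKM (adjusted p = 0.881). Of the steroid sulfate list 6 of 11 were tested and 0 passed. Papss1, which makes the sulfate donor, led it with 58.6 ± 1.06 against 62.4 ± 1.54 FPKM (adjusted p = 0.292). Of the xenobiotic response list 11 of 15 were tested and 0 passed, with Nfe2l2, the regulator of antioxidant genes, at 105.1 ± 3.02 against 108.2 ± 1.92 FPKM (adjusted p = 0.626). The widest differences, named after their values were seen, were those of Sult1e1, an oestrogen sulfotransferase, at 0.198 ± 0.159 against 0.837 ± 0.280 FPKM (adjusted p = 0.144), and of the quinone reductase Nqo1, at 0.492 ± 0.0979 against 1.56 ± 0.546 FPKM (adjusted p = 0.0567). Both genes were higher in all 3 LPSKD-labelled libraries without overlap and missed the threshold.

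**Figure D4:**
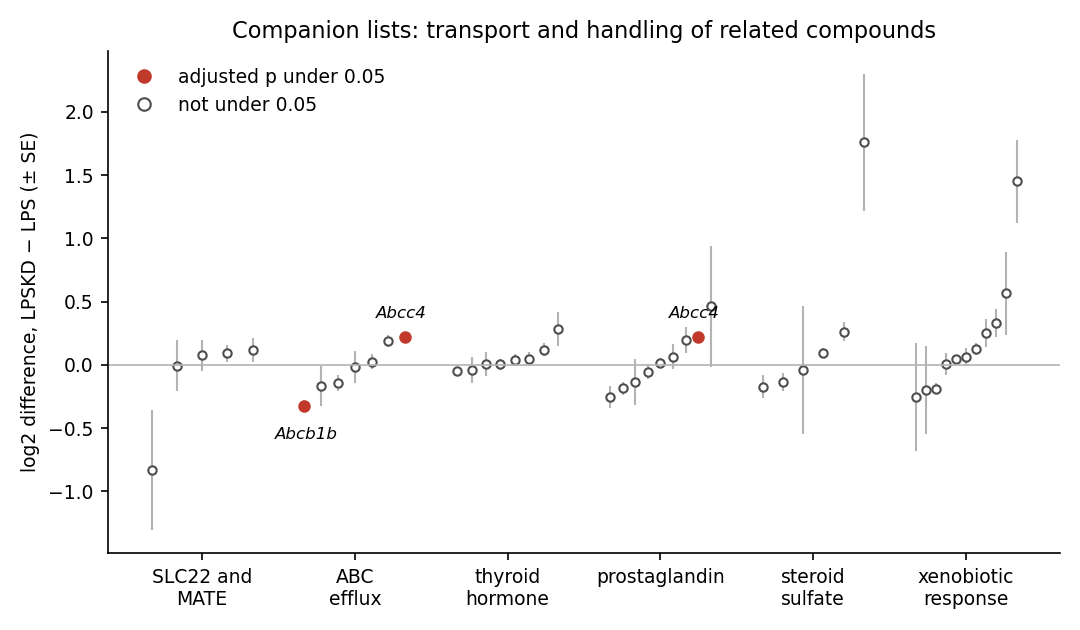
log2 difference (LPSKD minus LPS, ± SE) of the tested genes of 6 companion lists, 1 point per gene and list, filled where the limma adjusted p is under 0.05. Most points lie near 0, with Abcc4 (0.22, on 2 lists) and Abcb1b (−0.32) filled and Sult1e1 (1.76) and Nqo1 (1.45) high with wide errors.

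Around Slco4a1 on chromosome 2, 9 other protein-coding genes start within 200 kb, and 5 of them passed the filter. Ogfr, the opioid growth factor receptor, starts 133.0 kb downstream and fell. It had 70.6, 64.8 and 65.2 FPKM in the LPS-labelled libraries and 46.1, 48.6 and 52.6 FPKM in the LPSKD-labelled ones, all lower than any labelled LPS. The log2 difference of Ogfr was −0.45 with an SE of 0.06 (limma, adjusted p = 0.00602), opposite in sign to Slco4a1, and its adjusted p was 0.0559 with 1 common prior variance. The other 4 did not pass: Mrgbp, which starts 125.1 kb downstream and is part of a histone acetyltransferase complex, had a log2 difference of −0.11 (adjusted p = 0.350), Rps21, a ribosomal protein, −0.02 (0.907), Cables2 −0.07 (0.794) and Rbbp8nl −0.11 (0.804). Ntsr1, the neurotensin receptor, which starts 43.7 kb downstream, was at 0 in all 6 libraries, and Gata5, Col9a3 and Tcfl5 were below the filter.

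**Figure D5:**
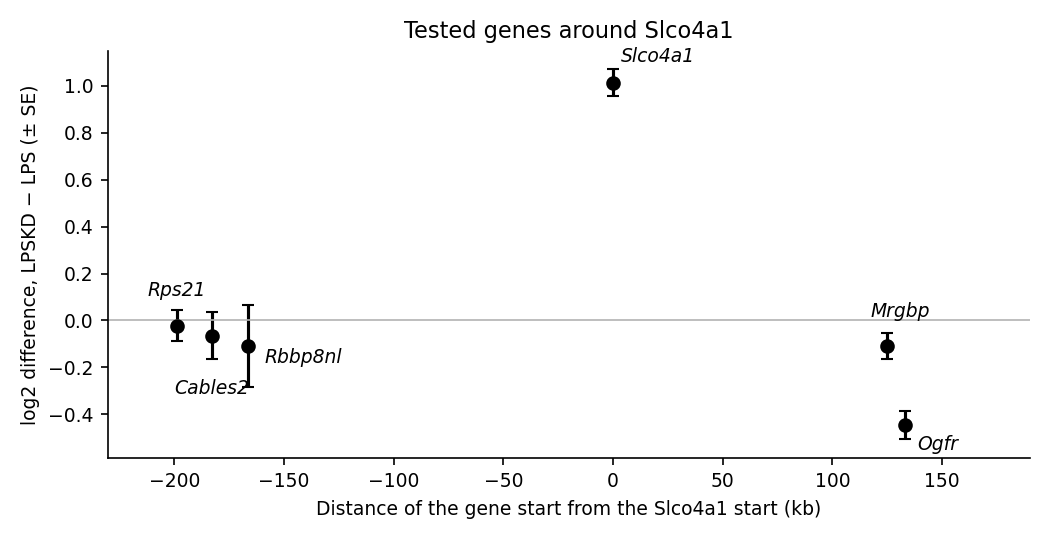
log2 difference (LPSKD minus LPS, ± SE) of Slco4a1 and its 5 tested neighbours against the distance of their start from that of Slco4a1 in kb. Slco4a1 stands at 1.01, Ogfr at −0.45, and the other 4 between −0.11 and −0.02.

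The 5 tested genes whose pattern over the 6 libraries was most like that of Slco4a1, by the root mean square distance of the centred log2 values, were Bbof1 (0.0725), Sult1c2 (0.0976), Ccl20 (0.118), Map3k7cl (0.127) and Atp2a3 (0.127). Ccl20, a chemokine that attracts lymphocytes and dendritic cells, had 58.8, 67.2 and 60.5 FPKM in the LPS-labelled libraries and 134, 123 and 126 FPKM in the LPSKD-labelled ones. Sult1c2, a cytosolic sulfotransferase, had 5.93, 5.88 and 5.72 FPKM against 12.3, 10.9 and 12.8 FPKM. These genes were picked for their likeness over 6 libraries, and it is a description of this table alone.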

How the data were processed

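RNA-seq had been done on poly(A) RNA of mTECs, 3 libraries labelled LPS and 3 labelled LPSKD, with paired-end sequencing. The authors deposited FPKM values, 1 per gene and library. The submitters' processing notes name HISAT2 2.0, StringTie 1.3.0, Bowtie 0.12.2 and the builds mm8 and GRCh38.p13, with no role for any, and the steps that led to the table are not given in the sources used here. Positions are those of GENCODE M21 (GRCm38), in which 22399 of the 22442 identifiers had a symbol.

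Whole fragments were recovered from the FPKM by multiplying with a gene length and a library total. For 16836 of the 16837 genes above 0 all values came out within 0.001 of a whole number, 97.7% of them at the coding length or up to 10 bases more. Of the 8641 genes whole at the coding length itself, 6.98% stayed whole when the totals were raised by 0.1% and that length was kept. Other lengths were not tried with the raised totals. Totals, intervals and limits on a count of 0 (3 fragments) come from these fragments and cover counting error only.

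limma 3.58.1 (R 4.3.3) with a trended prior variance was fitted to log2(FPKM + 0.1) of the 11723 genes with a mean of at least 0.5 FPKM, LPSKD against LPS, with no covariate, and p-values were adjusted after Benjamini-Hochberg over all of them (threshold 0.05). For members under the filter, the log2 difference comes from fitting every gene above 0. The added 0.1 shrinks the folds of weakly expressed genes. On simulated data, 200 genes with a mean of at least 1 FPKM were changed by 1 log2 unit. The spread beyond counting error was set alike for every gene and library. Of the changed genes, 197 (98.5%) were recovered, and 16 unchanged genes were called among 11725 tested. Smaller changes and a library that stands apart were not simulated, so the share recovered does not cover them. Promoters came from a RefSeq table (GRCm38.p6). Other steps used Python 3.11.15, numpy 2.4.6, pandas 2.3.3, scipy 1.17.1 and matplotlib 3.10.9.

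Members and lists were chosen with earlier results of these data known. The genes named were the members, the other Slco genes, Stat3, each companion list's most abundant gene and those past the threshold, coding genes starting within 200 kb of Slco4a1, and the 5 genes most like it. The hepatocyte list was added after its library was seen. Alternatives were other pseudocounts, filters, scalings, variance models, a replicate block, voom on the recovered fragments and each library left out. ChIP-seq data of the study were not analysed here.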

Additional observations from a re-analysis of the deposited data

How the results depend on the processing

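The log2 difference of Slco4a1 ran from 0.986 to 1.064 over the fits without 1 library and from 0.991 to 1.024 over the other settings. The number of genes past the threshold, 379, was 140 with eBayes without a trend, 213 with the replicate block and 598 with voom on the recovered fragments, and ran from 158 to 356 without 1 library, with 158 without LPS replicate 3, 178 without LPSKD replicate 1, 192 without LPSKD replicate 2 and 168 without LPSKD replicate 3. The companion genes past it, 2 of 45, were 1 without a trend, 5 with voom and 2 with the replicate block, and ran from 0 (without LPS replicate 3) to 3 without 1 library. Over all genes tested, same-numbered libraries did not deviate together (correlations of −0.016, −0.004 and −0.043), which cannot show that they were unpaired. With the replicate block, the SE was 0.035 for Slco2a1 and 0.05 for Slco3a1, against 0.053 and 0.071 without it. For Slco4a1 and Slco5a1 it was 0.062 and 0.195, against 0.057 and 0.187. The block left Abcc4 and Abcb1b past the threshold (limma, adjusted p = 0.0421 and 0.0423). Among the results recomputed under these settings, no call changed its direction. The causes of these shifts were not tested.

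With 3 libraries a group, an exact permutation test of a single gene cannot go below p = 0.10. Slco2b1 and Slco1a6 rest on 35 fragments a library or fewer. With all 6 libraries, their differences were not detectable beyond the spread at this depth. They turned on single libraries, with −1.37 (SE 0.34) for Slco2b1 without LPS replicate 3 and 1.09 (SE 0.37) for Slco1a6 without LPSKD replicate 2. The split of fragments among Slco1a genes, and between Slco2b1 and Gm15635, depends on a counting method that is not given in the sources used here.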
